A study of Mus musculus with 27 samples.

Results

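Wild-type mouse embryonic fibroblasts carrying the label WT-NTD were compared with wild-type fibroblasts labelled WT in the second of 2 fibroblast experiments, across all genes. The members were 3 WT-NTD and 3 WT libraries, chosen by the experiment number and genotype in their titles, and they make up 6 of the 27 RNA sequencing libraries of the series. The series concerns FoxM1, and its title names Ect2, RhoA and mDia1 as the pathway under study. The other fibroblast groups were WT, KO and KO-NTD in experiment 1 and Het and Het-NTD in experiment 2, and lungs formed a separate set. Both groups compared here came from embryos of strain C57BL/6 and were wild type by label. The cells were of early passage, cycled asynchronously and were harvested near 90% confluence. No label explains NTD, says how it was introduced or says whether the WT libraries received a control in its place. Mouse embryonic fibroblasts are primary cells grown out of embryos, and nothing in the labels says whether the numbered libraries came from separate embryos or cultures. The p-values therefore measure only the spread between these libraries, part of which may be technical.

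FoxM1 is a forkhead transcription factor made in dividing cells. With the MuvB complex and B-Myb it binds promoters of genes needed for G2 and mitosis, among them cyclins B, Plk1, Aurora kinases and kinetochore genes. Its activity is held back during G1 and S by its own amino-terminal part and is released by phosphorylation as cells enter mitosis. Ect2 is an exchange factor that loads RhoA with GTP, and RhoA acts on the formin mDia1, which builds unbranched actin filaments under the cell cortex.

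The 6 libraries held 30247046 to 42954679 counts and 15963 to 16504 genes with at least 1 count. Fibroblast markers were abundant in each of them, with Col1a1, a fibrillar collagen gene, at 14797 to 20364 CPM (counts scaled to library size) and Vim, an intermediate filament gene, at 4340 to 5097 CPM. Between-group distances overlapped those within groups. The root mean square difference in log2 CPM was 0.488 to 0.502 between WT libraries, 0.408 to 0.545 between WT-NTD libraries and 0.399 to 0.675 between a WT and a WT-NTD library. WT library 1 lay nearer to WT-NTD libraries 1, 2 and 3 (0.459, 0.399 and 0.430) than to WT libraries 2 and 3 (0.501 and 0.488). On the first principal component of the 12 libraries of experiment 2, which held 45.9% of the variance, WT lay at 32.7, 47.5 and 37.3 and WT-NTD at 20.5, 28.1 and 22.3, with no overlap. Het and Het-NTD lay between -37.8 and -17.9, so the widest gap on this component was between these groups and the WT and WT-NTD libraries. Libraries 1 and 2 of both groups were high in Xist and near 0 in Y-linked genes, and library 3 of both was the opposite, so library 3 was no technical repeat of the others. Xist, the RNA that silences an X chromosome, stood at 501 and 407 CPM in WT libraries 1 and 2 and at 451 and 159 CPM in WT-NTD libraries 1 and 2.

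At the edgeR threshold, 2 of the genes tested differed between WT-NTD and WT, and both were higher in WT-NTD. They were Foxm1 itself and Phyhip, a gene for a protein that interacts with the peroxisomal enzyme phytanoyl-CoA hydroxylase. edgeR's quasi-likelihood test with Benjamini-Hochberg adjustment called 2 of 14314 genes (0.014%) at an adjusted p under 0.05, 2 higher and 0 lower, in a fit of the 12 libraries of experiment 2. At an unadjusted p under 0.05 there were 1055 genes (7.37%), 474 higher and 581 lower, and the CPM of the 2 groups did not overlap for 1335 genes (9.33%), 641 higher and 694 lower. DESeq2 called 28 of 12366 genes (0.226%), 6 higher and 22 lower. The median log2 fold change of all genes was 0.0011.

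Foxm1 had 145, 147 and 149 CPM in the 3 WT libraries and 406, 293 and 339 CPM in the 3 WT-NTD libraries. The WT values lay within a few CPM of each other, every WT-NTD value lay far above them, and the WT-NTD libraries differed more among themselves. The means were 147 ± 1.99 CPM in WT and 346 ± 56.9 CPM in WT-NTD (SD, n = 3 each), a ratio of 2.36 (95% interval 2.02 to 2.76). On the log2 scale the difference was 1.24 ± 0.10 (SE, edgeR adjusted p = 0.00137). The call was lost when only the 6 libraries compared were fitted, with the same log2 fold change of 1.24 (edgeR adjusted p = 0.0739). The table counts reads per gene and not per transcript part, so it does not show whether the added Foxm1 reads came from the whole coding sequence. Foxm1 lies on chromosome 6, from 128362967 to 128376146 on the plus strand (GRCm38), and its exons overlap those of no other counted gene.

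The same label change raised Foxm1 in the other backgrounds. Het had 126, 131 and 130 CPM and Het-NTD 351, 310 and 379 CPM, a log2 fold change of 1.42 (edgeR adjusted p = 0.000336). In experiment 1, which was fitted separately, KO had 139, 149 and 152 CPM and KO-NTD 364, 390 and 333 CPM, a log2 fold change of 1.31 (edgeR adjusted p = 0.000183). The NTD groups did not overlap with their controls in any background. The rise in WT was smaller than that in Het by 0.185 on the log2 scale, with an interval of -0.50 to 0.13 for WT minus Het (edgeR, unadjusted p = 0.220, adjusted p = 0.903), so a difference between these backgrounds was not shown. The difference between experiments was not tested.

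Phyhip was close to silent in WT, at 0.263, 0.128 and 0.199 CPM, and stood at 3.22, 3.59 and 3.26 CPM in WT-NTD. These levels rest on 10, 5 and 7 counts in the WT libraries and on 96, 154 and 107 counts in the WT-NTD libraries. The groups were far apart and each was tight. The ratio was 16.8 (95% interval 8.86 to 32.0), a log2 fold change of 4.07 ± 0.43 (SE, edgeR adjusted p = 0.0032). Phyhip was below the level set for naming called genes, an average log2 CPM of 1, and was chosen after its values were seen. It lies on chromosome 14, from 70457476 to 70468832 on the plus strand (GRCm38).

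In no other fibroblast group was Phyhip near the WT-NTD level. It ranged from 0.0710 to 0.225 CPM in Het, from 0.127 to 0.423 CPM in Het-NTD, from 0.213 to 0.284 CPM in KO and from 0.172 to 0.214 CPM in KO-NTD. The log2 fold change was 0.65 for Het-NTD against Het (interval -0.42 to 1.73, edgeR adjusted p = 0.894) and -0.24 for KO-NTD against KO (-1.04 to 0.56, edgeR adjusted p = 0.857). The difference between the WT and Het backgrounds was 3.42 on the log2 scale (interval 1.95 to 4.89, edgeR unadjusted p = 0.000252), which did not pass adjustment over all genes (edgeR adjusted p = 0.892) and was called by DESeq2.

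**Figure D1:**
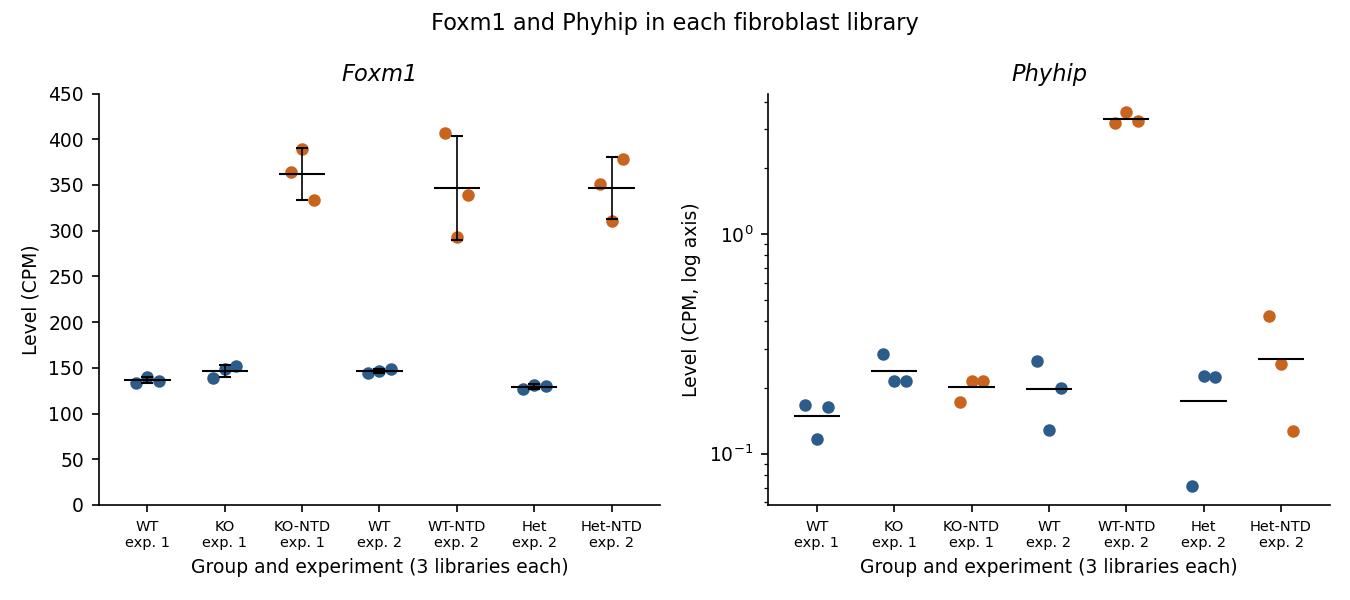
Level in CPM of Foxm1 (left, linear axis) and Phyhip (right, log axis) in every fibroblast library. Points are libraries, 3 in each of 7 groups, orange where the label carries NTD, and bars are means (Foxm1 with the SD). Foxm1 lies between 293 and 406 CPM in all NTD libraries, while Phyhip lies above 3 CPM in the WT-NTD libraries alone.

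How far the other genes could have moved was set by the width of their intervals. For the 9476 genes averaging at least 3 log2 CPM, the median SE of the log2 fold change was 0.0686, and the 95% interval lay within 1.5-fold of no change for 93.1% of them and within 2-fold for 98.0%. Over all 14314 genes, 69.3% of intervals lay within 1.5-fold. Among 2808 genes with an average log2 CPM under 1 that share was 1.92%. For most genes at such levels a change of that size was therefore not excluded.

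**Figure D2:**
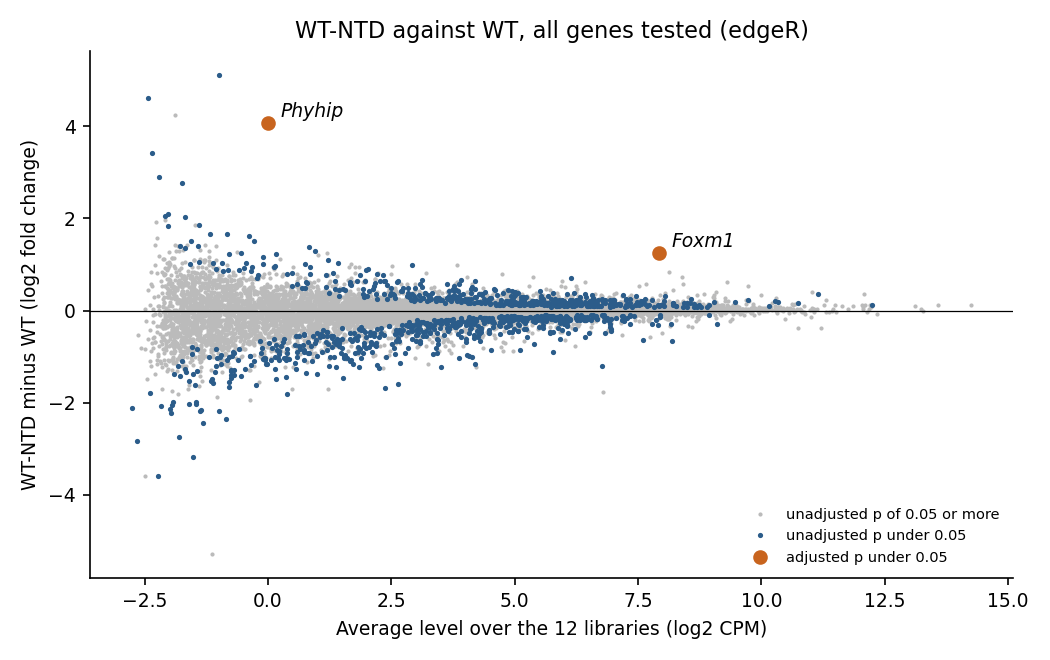
Log2 fold change, WT-NTD minus WT, against the average log2 CPM over the 12 libraries of experiment 2, 1 point per gene tested. Blue points have an unadjusted p under 0.05 and the 2 orange points, Foxm1 and Phyhip, an adjusted p under 0.05 (edgeR).

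The 3 partners in the series title showed no difference past the threshold. Ect2 had 74.7, 84.9 and 80.5 CPM in WT and 64.8, 76.3 and 81.3 CPM in WT-NTD, and the groups overlapped. Its log2 fold change was -0.11 (interval -0.28 to 0.06, edgeR adjusted p = 0.749). Rhoa lay between 510 and 513 CPM in WT and between 508 and 534 CPM in WT-NTD, a log2 fold change of 0.02 (-0.05 to 0.09, edgeR adjusted p = 0.905). Diap1, the gene of mDia1, lay between 55.6 and 58.7 CPM in WT and between 54.8 and 61.3 CPM in WT-NTD, a log2 fold change of 0.03 (-0.08 to 0.14, edgeR adjusted p = 0.896). Exons of Tcta overlap those of Rhoa on the other strand, and the library kit does not mark strand. Without WT-NTD library 1 the sign of Rhoa and of Diap1 turned, to -0.00506 and -0.00790.

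Among 41 tested genes of Ect2, RhoA and cortical actin, edgeR called 0 members, and the median log2 fold change was 0.03. DESeq2 called 1, Ezr, whose product ezrin links actin to the plasma membrane, and 40 of the 41 intervals lay within 1.5-fold. Ezr had 55.0, 78.2 and 72.2 CPM in WT and 49.8, 52.9 and 44.1 CPM in WT-NTD. The groups did not overlap, and the log2 fold change was -0.48 (edgeR unadjusted p = 0.00284, adjusted p = 0.654). Myh10, a nonmuscle myosin heavy chain gene, had the next lowest p at -0.10 (edgeR adjusted p = 0.673), and Myh9 was the highest member at 0.11. The median of 27 SRF and MRTF targets, genes that respond to the actin state, was 0.03, and that of 24 YAP and TEAD targets was -0.05, with 0 members at an unadjusted p under 0.05 and 0 called by edgeR or DESeq2 in either list. The signs of these small medians turned when 1 library was left out, that of the Ect2 and RhoA list to -0.0090 and that of the SRF list to -0.03 without WT-NTD library 1, and that of the YAP list to 0.02 without WT library 3.

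No G2/M target of FoxM1 passed the threshold beside the higher Foxm1 counts. All 45 listed G2/M genes driven by FoxM1 were tested; edgeR and DESeq2 called 0, 11 lay above 0 and 34 below, and the median log2 fold change was -0.04. All 45 intervals lay within 1.5-fold, as did those of 93.1% of all genes averaging at least 3 log2 CPM. The members ran from -0.23 for Knstrn, a kinetochore adaptor of the spindle, to 0.15 for Pttg1, the securin gene. Of the 45, 5 had an unadjusted p under 0.05 (11.1%, against 7.37% of all genes), and these 5 were lower. Without WT-NTD library 1 the median was 0.0067, so its sign rested on that library.

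Cdc20, the activator of the anaphase-promoting complex, had the lowest p of the G2/M genes. It had 166, 174 and 191 CPM in WT and 142, 156 and 163 CPM in WT-NTD. The highest WT-NTD value was just below the lowest WT value, and the log2 fold change of -0.21 did not pass adjustment (edgeR unadjusted p = 0.00312, adjusted p = 0.654). Kif20a, a kinesin of cytokinesis, was next at -0.12 (edgeR adjusted p = 0.655). Plk1, the mitotic kinase that phosphorylates FoxM1, had 140, 141 and 147 CPM in WT and 121, 142 and 146 CPM in WT-NTD, overlapping ranges with a log2 fold change of -0.07. Cyclin B1 (Ccnb1, -0.06), Aurora B (Aurkb, -0.04) and survivin (Birc5, -0.03) were at similar sizes, each with an adjusted p above 0.8 in edgeR.

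The other cell cycle lists held no called gene in edgeR or DESeq2. The 40 G1/S genes driven by E2F had a median log2 fold change of -0.06, with 10 above 0 and 30 below, and 3 members at an unadjusted p under 0.05 (7.5%, against 7.37% of all genes). Lowest in p were Mcm5, a subunit of the replicative helicase, at -0.17, and Cdc6, a licensing factor, also at -0.17 (edgeR adjusted p = 0.654 and 0.663). In the spindle checkpoint and kinetochore list of 33 genes the median was -0.04 and 2 members, Cenpl at -0.20 and Cep55 at -0.12, had an unadjusted p under 0.05 (6.06%). The 26 genes of MuvB cofactors, pocket proteins and E2F repressors had a median of 0.0072 and every interval within 1.5-fold. Cdkn2b, which encodes the p15 inhibitor of CDK4 and CDK6, was the highest of them at 0.23, with 49.5, 46.5 and 44.9 CPM in WT and 59.5, 57.3 and 48.6 CPM in WT-NTD. WT-NTD library 3 was below the highest WT value, and the gene did not pass adjustment (edgeR adjusted p = 0.654). All 39 DNA repair and checkpoint genes also had intervals within 1.5-fold, with a median of -0.02.

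**Figure D3:**
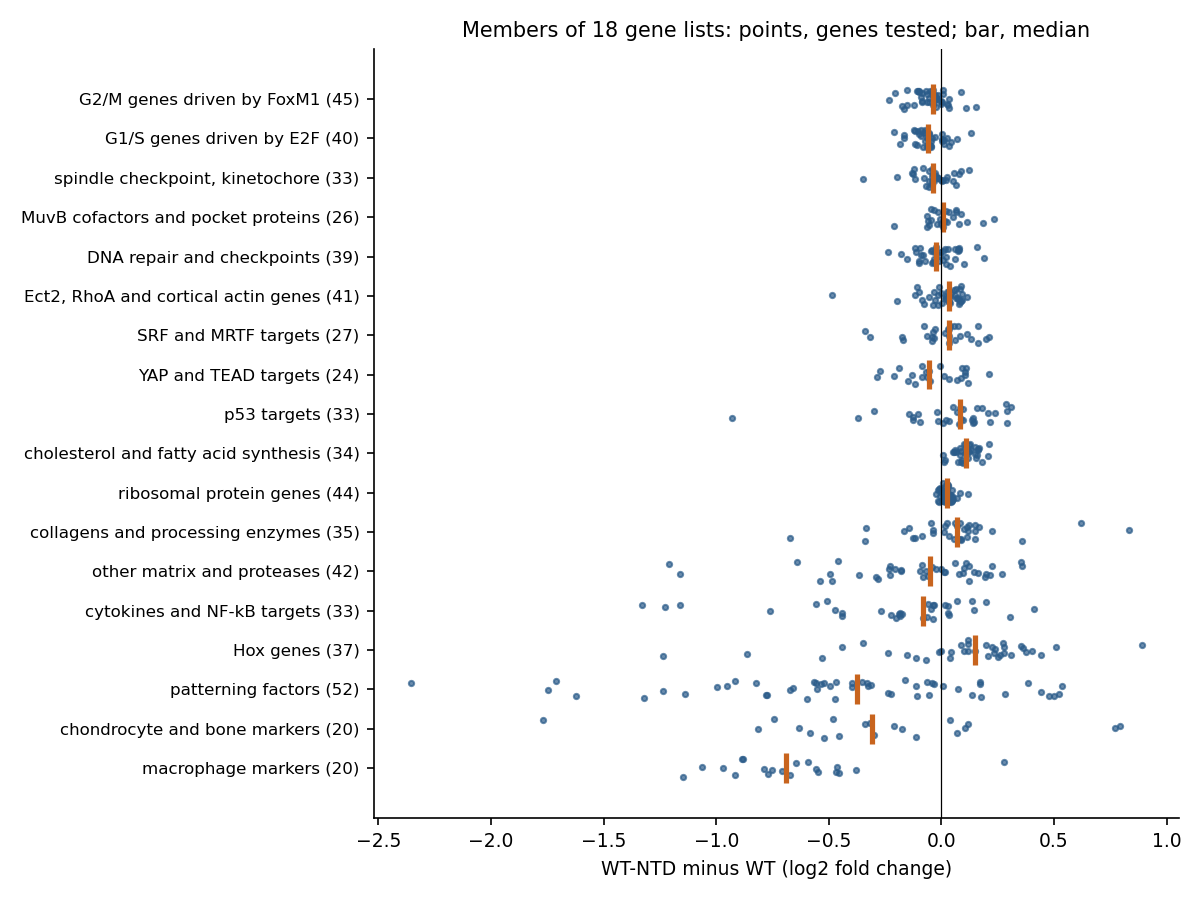
Log2 fold change, WT-NTD minus WT, of the tested members of 18 gene lists, with the number tested in brackets. Points are genes and orange bars are list medians. Cell cycle, repair and actin lists lie near 0, and the macrophage, patterning and cartilage lists are wider with medians below 0 (the cartilage median is 0.16 without WT library 2).

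Below the 2 called genes, the lowest p-values belonged mostly to genes with lower values in WT-NTD. They are named by rank, after their values were seen, and none passed the edgeR threshold. Ucp2, a mitochondrial carrier of the inner membrane, had 15.9, 18.5 and 15.6 CPM in WT and 12.02, 11.01 and 12.5 CPM in WT-NTD. The groups did not overlap, and the log2 fold change was -0.50 (edgeR adjusted p = 0.0548). Klhl42, a substrate adaptor of a cullin ubiquitin ligase, had 21.2, 21.03 and 19.9 CPM in WT and 14.1, 15.3 and 13.5 CPM in WT-NTD, again apart, with a log2 fold change of -0.53 (edgeR adjusted p = 0.0548). Tnfrsf1b, a receptor for tumour necrosis factor, had 29.3, 34.6 and 34.0 CPM in WT against 21.9, 25.5 and 23.7 CPM in WT-NTD, a log2 fold change of -0.46 (edgeR adjusted p = 0.0778). All 3 were among the 22 genes that DESeq2 called lower. In edgeR without the filter on low counts, and without WT library 1, a fit that called 119 genes, all 3 were called lower too. With the library number as a block in the 12 libraries, Klhl42 and Tnfrsf1b were called but Ucp2 was not. The other edgeR fits called none of the 3, among them the fit of the 6 libraries alone and those that left out any other library.

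Tnfrsf10b, the mouse TRAIL death receptor and a p53 target, had the lowest p of the genes with higher values that edgeR did not call, at 0.31. Tnfrsf10b had 44.3, 46.2 and 50.5 CPM in WT and 60.5, 56.2 and 57.8 CPM in WT-NTD, with no overlap (edgeR adjusted p = 0.227), and it was 1 of the 6 genes DESeq2 called higher. It was also the gene with the lowest p for a difference between backgrounds, since it stood at -0.22 in Het-NTD against Het. Among 33 p53 targets 23 lay above 0, the median was 0.08, which turned to -0.0061 without WT-NTD library 1, and edgeR called 0 members. Cdkn1a, the p21 gene, was at -0.02 and Mdm2, the p53 ubiquitin ligase gene, at 0.14, with overlapping groups for both.

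Two-sided tests of the difference between the NTD effect in WT and that in Het called 0 of 14314 genes in edgeR, with 711 at an unadjusted p under 0.05 and a smallest adjusted p of 0.259. DESeq2 called 4, which were Tnfrsf10b, Phyhip, Ucp2 and Tbc1d4. Tbc1d4, a Rab GTPase-activating protein gene of glucose transporter traffic, had 7.73, 8.78 and 8.59 CPM in WT and 4.13, 4.78 and 4.17 CPM in WT-NTD. Its groups were well apart, and the log2 fold change was -0.94 in WT and 0.28 in Het, a difference of -1.22 (edgeR unadjusted p = 0.000431, adjusted p = 0.892). Ucp2 stood at -0.50 in WT and -0.01 in Het. Its mean level was 16.7 CPM in WT and 11.8 CPM in WT-NTD, but 167 CPM in Het and 166 CPM in Het-NTD, so these effects were measured at unlike levels.

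Fyb, an adaptor of haematopoietic cells, had 4.81, 5.24 and 5.97 CPM in WT and 2.72, 2.26 and 1.95 CPM in WT-NTD, with no overlap and a log2 fold change of -1.21 (edgeR adjusted p = 0.375). The log2 fold change was -1.249 in Het-NTD against Het and -1.30 in KO-NTD against KO, neither past the threshold (edgeR adjusted p = 0.526 and 0.724). Fyb was scattered in experiment 1, at 1.26, 11.4 and 8.71 CPM in KO and 1.47, 1.11 and 6.11 CPM in KO-NTD, overlapping groups with an interval of -3.22 to 0.62. The difference between WT and Het was 0.04 (interval -0.69 to 0.77, edgeR unadjusted p = 0.908, adjusted p = 0.992). The WT, Het and KO comparisons share no library.

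**Figure D4:**
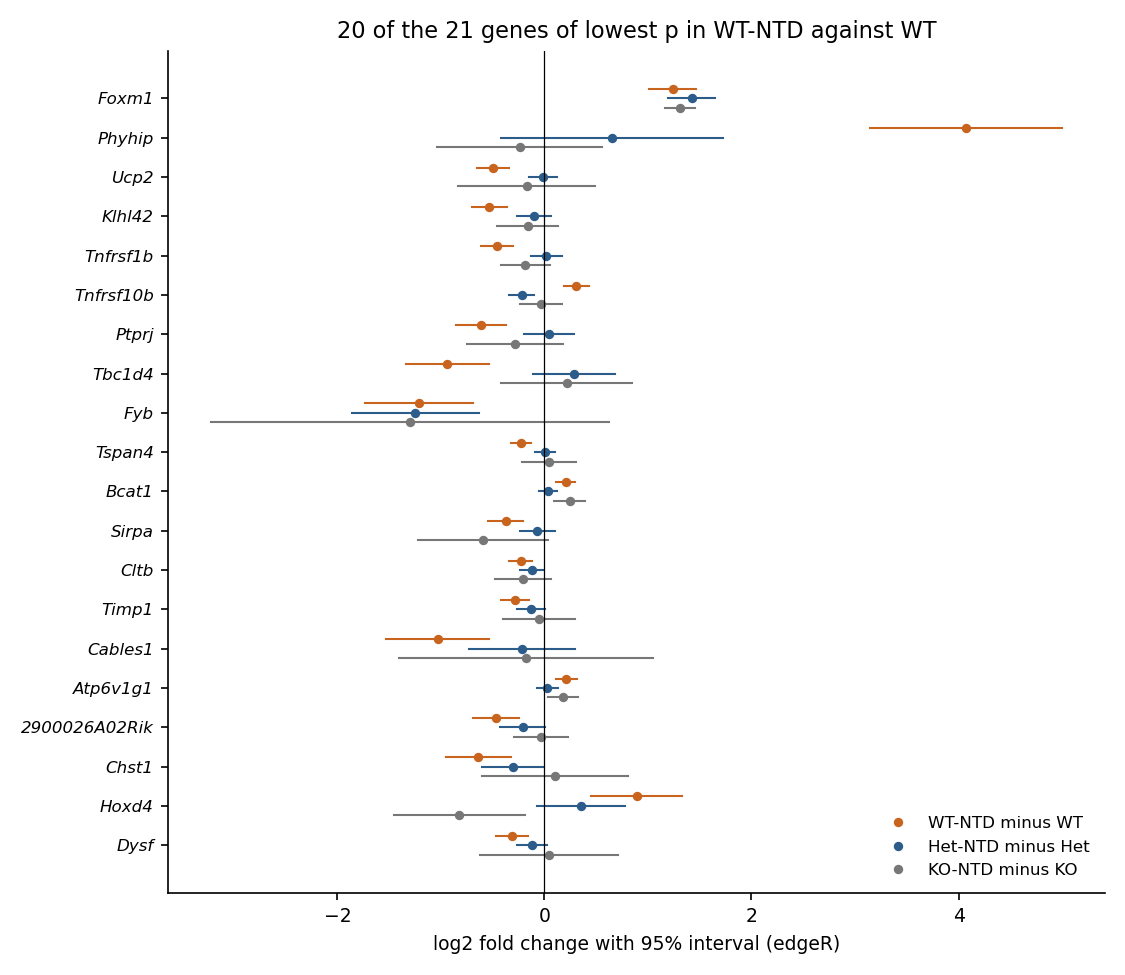
Log2 fold change with its 95% interval (edgeR) for 20 of the 21 genes of lowest p in WT-NTD against WT, in that comparison (orange), in Het-NTD against Het (blue) and in KO-NTD against KO (grey). The intervals of Foxm1 lie above 0 in all 3, and those of Phyhip above 0 in orange alone.

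The other NTD comparisons called as few genes. Het-NTD against Het had 2 called in edgeR (0.014%), Foxm1 higher and Notch1, a Notch receptor gene, lower at -0.31, while Notch1 stood at -0.07 in WT-NTD against WT. Notch1 was not called in 5 of the 6 fits that left out a Het or Het-NTD library. The Het groups also differed in sex-linked genes, with Xist at 0.402, 544 and 498 CPM in Het and at 0.329, 0.341 and 0.382 CPM in Het-NTD, so for those comparisons sex and NTD were partly confounded, and the part of sex in them was not tested. KO-NTD against KO had 1 called of 14551 (0.00687%), Foxm1. Of the 1055 genes at an unadjusted p under 0.05 in WT-NTD against WT, 95 (9.005%) were also under 0.05 in Het-NTD against Het, where 6.26% of all genes were, and 74 of the 95 had the same direction. In KO-NTD against KO 102 of 1048 were (9.73%, against 6.68% of the genes tested in both), 89 with the same direction. In all 3 comparisons 6 genes were under 0.05 with 1 direction: Foxm1, Pop4, a subunit of RNase P, and Tial1, an RNA-binding protein gene, were higher, and Plxna2, a semaphorin receptor gene, Ecm1, an extracellular matrix gene, and Igsf1, a membrane glycoprotein gene, were lower. Apart from Foxm1 none passed adjustment in any of them. The 6 came from 14176 genes tested in both experiments, and the number to be met by chance was not worked out. Igsf1 was near the limit of detection, at 0.263, 0.308 and 0.284 CPM in WT and 0, 0.0933 and 0 CPM in WT-NTD.

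Genes of cholesterol and fatty acid synthesis leaned one way by small amounts. All 34 tested members lay above 0, with a median log2 fold change of 0.11 against 0.0011 for all genes, and edgeR and DESeq2 called 0 of them. The lowest member was Acaca, the acetyl-CoA carboxylase gene, at 0.0060. At an unadjusted p under 0.05 there were 10 members (29.4%, against 7.37% of all genes), and the groups did not overlap for 5 (14.7%, against 9.33% of all genes). The summed level of the list was 7358, 6651 and 7208 CPM in WT and 7391, 7488 and 8046 CPM in WT-NTD. WT-NTD library 1 was thus barely above WT library 1, while WT library 2 was the lowest and WT-NTD library 3 the highest. The median was 0.06 without WT-NTD library 3.

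Lss, lanosterol synthase, had the lowest p of this list, with 111, 105 and 110 CPM in WT and 121, 119 and 130 CPM in WT-NTD. The groups did not overlap, and the log2 fold change of 0.18 did not pass adjustment (edgeR adjusted p = 0.654). Nsdhl, an enzyme of sterol demethylation, was at 0.21, with 57.0, 55.9 and 61.1 CPM in WT and 66.8, 64.8 and 69.5 CPM in WT-NTD, and its groups did not overlap either. In Het-NTD against Het the median of the list was -0.02, and in KO-NTD against KO it was 0.05. Ribosomal protein genes also lay mostly above 0, 37 of 44, but with a median of only 0.02.

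Most macrophage markers had lower values in WT-NTD, and none passed the edgeR threshold. In bulk RNA, fewer cells of a type and less RNA per cell cannot be told apart. Of 20 tested markers 19 lay below 0, the median log2 fold change was -0.69, the groups did not overlap for 9 (45%, against 9.33% of all genes), and edgeR and DESeq2 called 0. Their summed level was 278, 245 and 298 CPM in WT and 256, 103 and 135 CPM in WT-NTD, so WT-NTD library 1 lay within the WT range and libraries 2 and 3 below it. Cd163 did not pass the filter on low counts.

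Csf1r, the receptor for the macrophage growth factor CSF1, had 21.7, 23.7 and 27.4 CPM in WT and 19.2, 8.51 and 11.9 CPM in WT-NTD, with no overlap and a log2 fold change of -0.88 (edgeR adjusted p = 0.686). Cd68, a lysosomal glycoprotein gene of phagocytes, had 9.97, 10.6 and 9.95 CPM in WT and 7.72, 5.22 and 6.28 CPM in WT-NTD. It had the lowest p of the markers at -0.67 (edgeR adjusted p = 0.654). The median of the markers was -1.74 in Het-NTD against Het and -1.13 in KO-NTD against KO, with 0 members called in either. The summed level in Het was 102, 14.98 and 41.1 CPM and in Het-NTD 22.6, 15.9 and 23.7 CPM, so these groups overlapped and Het library 2 was the lowest of the 6. The part of this difference in the levels of Fyb, Tnfrsf1b or other genes named above was not tested for each gene; with the mean log2 macrophage level as a covariate, Foxm1 was at 1.29 and Phyhip at 3.87, and both were still called by edgeR.

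The cytokine, chemokine and NF-kB list had 10 members above 0 and 23 below. Its 33 tested genes had a median of -0.08, and edgeR called 0. At an unadjusted p under 0.05, 5 were lower and 1 higher (18.2%, against 7.37% of all genes). The groups did not overlap for 4 (12.1%, against 9.33% of all genes). Ccl9, a chemokine made by macrophages, had 4.16, 7.37 and 7.93 CPM in WT and 3.19, 1.89 and 3.29 CPM in WT-NTD, a log2 fold change of -1.23. Nfkbia, the inhibitor of NF-kB, was at -0.44 with non-overlapping groups. The interferon-stimulated genes, 42 tested, had a median of 0.08 that turned to -0.14 without WT library 3.

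Patterning transcription factors, which mark where in the embryo a fibroblast came from, varied widely between libraries of 1 group. Of 52 tested factors 39 lay below 0 and the median log2 fold change was -0.37, but edgeR and DESeq2 called 0, and without WT library 2 the median was -0.07. At an unadjusted p under 0.05, 5 factors were higher and 4 lower (17.3%, against 7.37% of all genes). The 5 higher were Tbx15 at 0.14, Shox2 at 0.28, Emx2 at 0.39, Irx2 at 0.44 and En1 at 0.50, with overlapping groups for each. Over the 52 factors, the groups did not overlap for 1 (1.92%, against 9.33% of all genes). Six2, a homeobox factor of embryonic mesenchyme, had 4.84, 14.7 and 10.2 CPM in WT and 2.89, 6.32 and 4.17 CPM in WT-NTD, overlapping ranges with a log2 fold change of -1.14. Lhx2, a LIM homeobox factor, was at -0.92, and Dlx1 was the lowest member at -2.36 with 2.82 CPM in WT library 2 and 0.105 to 0.796 CPM in the other WT libraries. Forkhead factors other than Foxm1 held 7 of 25 genes at an unadjusted p under 0.05 (28%, against 7.37% of all genes), all lower. The groups did not overlap for 3 of the 25 (12%, against 9.33% of all genes). Foxd1 was at -1.47, with 1.82, 7.42 and 5.32 CPM in WT and 1.18, 2.31 and 1.71 CPM in WT-NTD, overlapping groups. Foxd2 was at -1.39 and low throughout, at 0.745 to 1.08 CPM in WT and 0.134 to 0.513 CPM in WT-NTD (edgeR adjusted p = 0.654 for both genes).

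Hox genes, which record position along the body axis, had a median of 0.15 over 37 tested, with 26 above 0 and 0 called by edgeR. Hoxd4 was called higher by DESeq2, with 3.45, 2.46 and 1.82 CPM in WT and 4.90, 4.24 and 5.24 CPM in WT-NTD. Its groups did not overlap, and the log2 fold change was 0.89 (edgeR adjusted p = 0.529). In KO-NTD against KO Hoxd4 stood at -0.82.

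Apart from Foxm1, 8 genes averaging at least 3 log2 CPM had a log2 fold change of at least 1 in size, and all 8 were lower in WT-NTD without being called by edgeR. They were Rspo2, Col2a1, Rcan2, Il1rn, Unc5c, Penk, Ndnf and Mgp, and the lowest WT value of each was in WT library 1. Mgp, an inhibitor of calcification, had 120, 308 and 235 CPM in WT and 86.5, 110 and 89.6 CPM in WT-NTD, and Rcan2, a calcineurin regulator, had 17.97, 33.8 and 36.8 CPM against 10.3, 17.3 and 15.2 CPM. Neither overlapped between groups, the log2 fold changes were -1.21 and -1.04 (edgeR adjusted p = 0.654 each), and DESeq2 called both lower. Col2a1, the cartilage collagen gene, was at 407 and 395 CPM in WT libraries 2 and 3 but at 29.7 CPM in WT library 1, against 13.4, 108 and 122 CPM in WT-NTD. The summed level of 20 tested chondrocyte and bone markers was 137, 562 and 526 CPM in WT and 117, 235 and 247 CPM in WT-NTD. Their median log2 fold change was -0.31, and it turned to 0.16 without WT library 2.

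Some of these genes followed the library number as well as the group. Rspo2, a secreted enhancer of Wnt signalling, had 10.0, 32.1 and 19.6 CPM in WT libraries 1 to 3 and 4.33, 14.4 and 7.44 CPM in WT-NTD libraries 1 to 3, so library 2 was highest and library 1 lowest in each group. The groups overlapped, and the log2 fold change was -1.22 (edgeR adjusted p = 0.659). Col7a1, the anchoring fibril collagen gene, had 191, 61.4 and 119 CPM in WT and 319, 116 and 228 CPM in WT-NTD, with the reverse order of libraries in both groups and a log2 fold change of 0.83 (edgeR adjusted p = 0.697). Mgp, Six2 and Foxd1, given above, also had library 2 highest and library 1 lowest in each group. The p-values given for all these genes took no account of the library number. With the number as a block in the 6 libraries alone, a setting chosen after seeing the data, edgeR called both Rspo2 and Col7a1. Without that block, the median across 35 collagens and processing enzymes was 0.07, with 0 members at an unadjusted p under 0.05 and 0 called by edgeR or DESeq2. The sign of this median turned without WT library 3. Among 42 other matrix proteins and proteases, 18 lay above 0 and 24 below, and edgeR called 0. DESeq2, which called 0.226% of all genes, called 2 lower, Mgp and Timp1, a metalloprotease inhibitor gene at -0.28. At an unadjusted p under 0.05, 4 members were higher and 4 lower (19.05%, against 7.37% of all genes). The groups did not overlap for 3 members (7.14%, against 9.33% of all genes). The highest member was Postn, at 0.36.

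The remaining pathway lists held no gene called by edgeR or DESeq2 other than Ucp2, which DESeq2 called in the oxidative phosphorylation list. Of 20 tested Notch genes 12 lay above 0 and the median was 0.05, while 4 (20%, against 7.37% of all genes) had an unadjusted p under 0.05 and were lower, among them Lfng, which modifies Notch receptors, at -0.54 and the receptor gene Notch2 at -0.23 (edgeR adjusted p = 0.654 each). Of 31 genes of oxidative stress and detoxification 5 (16.1%) were lower at that level, led by G6pdx, which supplies NADPH, at -0.14. Medians were -0.05 for 26 TGF-beta targets, -0.18 for 45 BMP, Wnt and Hedgehog genes, -0.04 for 20 genes of the IGF axis, 0.06 for 34 stress response genes of the endoplasmic reticulum, -0.0067 for 36 glycolysis and hypoxia genes and -0.02 for 39 oxidative phosphorylation genes. The signs of the BMP, IGF, hypoxia and oxidative phosphorylation medians turned when 1 library was left out.

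Markers of other cell types held 1 gene called by DESeq2 and none called by edgeR. That gene was Fabp4, a fatty acid carrier of adipocytes and macrophages, with 2.03, 3.70 and 3.38 CPM in WT and 1.11, 1.84 and 1.2495 CPM in WT-NTD. The groups did not overlap, and the log2 fold change was -1.10 (edgeR unadjusted p = 0.00143, adjusted p = 0.654). The summed levels of 12 tested endothelial markers were 152 to 214 CPM in WT and 148 to 197 CPM in WT-NTD, and those of 11 epithelial markers 31.6 to 51.9 and 37.4 to 44.1 CPM, so these sets overlapped.

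**Figure D5:**
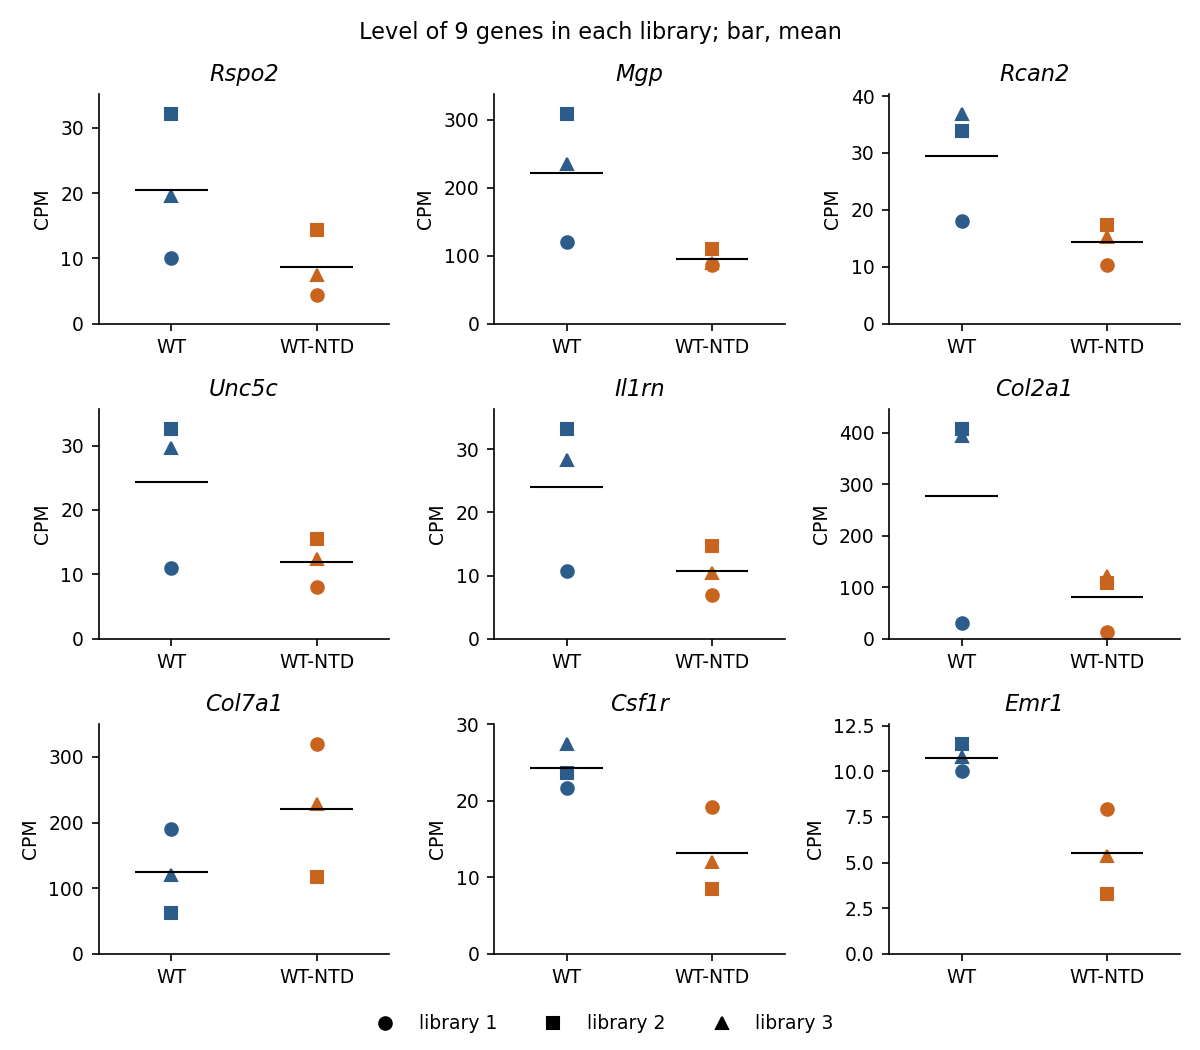
Level in CPM of 9 genes in the WT and WT-NTD libraries, with a symbol for each library number and a bar at the mean. WT library 1 lies near the WT-NTD values for Unc5c, Il1rn and Col2a1. Genes with the same order of libraries in both groups include Rspo2, Col7a1, Mgp and Unc5c.

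The count of called genes depended on WT library 1. Without it, edgeR called 119 of 14549 genes (0.818%), 53 higher and 66 lower, in place of 2. Col6a3 and Smoc1 are examples, chosen after their values were seen, in which WT library 1 lay near the WT-NTD libraries. Col6a3, a microfibrillar collagen gene, had 2483 CPM in WT library 1, 1550 and 1615 CPM in WT libraries 2 and 3, and 2126 to 2239 CPM in WT-NTD, and its log2 fold change moved from 0.22 to 0.47 when that library was left out. Smoc1, a secreted BMP antagonist gene, had 6.23 CPM in WT library 1, 12.6 and 15.2 CPM in the others, and 5.61 to 6.23 CPM in WT-NTD. Its log2 fold change moved from -0.93 to -1.23.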

How the data were processed

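Raw counts of reads, as the authors deposited them, came in a single table of 24062 gene symbols. TruSeq RNA v2 libraries were made from total RNA, per the labels' protocols. This kit does not mark strand. Besides Rhoa, several named genes have exons that overlap those of other counted genes, such as Ucp2, Ezr, Hoxd4, Kif20a, Lss, Csf1r and G6pdx. The submitters' processing notes name Subread, featureCounts 1.4.6, Bowtie2 2.2.6 and TopHat2 2.0.14, and the build mm10. For the annotation and the strand setting of counting, the entry is: not given in the sources used here. All 12 libraries of experiment 2 were fitted together with edgeR 4.0.16 in R 4.3.3 (filterByExpr by group, TMM, robust quasi-likelihood F test, two-sided, 8 residual degrees of freedom, Benjamini-Hochberg over all genes tested, threshold 0.05). Experiment 1 was fitted separately with 6. CPM use TMM-scaled library sizes. The fit was tested on simulated data. The smallest exact permutation p for 3 against 3 libraries is 0.1, so none was used. Replicates differed by more than sampling noise (chi-square per degree of freedom at least 8.52). Even numbers made up 63.5 to 64.6% of counts between 1 and 30, so counting noise may be understated. Alternatives were DESeq2 1.42.0, RLE scaling, no filter, a replicate block, the 6 libraries alone, a macrophage covariate and leaving out each library. Coordinates are from GENCODE M21. Members and lists were chosen with earlier results of these data known. Genes were named by a rule: Foxm1, Ect2, Rhoa and Diap1; called genes averaging at least 1 log2 CPM and non-overlapping CPM, up to 15 each way; up to 4 called members of a list or, with none called, its 2 of lowest p; and for the difference between backgrounds the 3 of lowest p. Other genes were named after their values were seen, and a few genes are not reported here.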

Additional observations from a re-analysis of the deposited data

How the results depend on the processing

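In WT-NTD against WT, the counts of called genes were 2 higher and 0 lower. RLE scaling and the macrophage covariate gave the same counts. DESeq2 gave 6 higher and 22 lower, the fit without a filter on low counts 3 lower, and the 6 libraries alone 1 higher. Leaving out 1 library gave 2 to 53 higher and 0 to 66 lower, the highest without WT 1, and 4 higher without WT-NTD 3. Phyhip was called in every alternative run, and Foxm1 in all but the fit of the 6 libraries alone, at a log2 fold change of 1.24.

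Same-numbered libraries had deviations from their group means correlated at r = 0.238, 0.446 and 0.072 across genes. WT 1 and WT 2 each correlated best with the WT-NTD library of their own number, but WT 3 with WT-NTD 1 (r = 0.153). Because of WT 3, the numbers were not taken to pair the libraries. With the replicate block 2 genes were called higher and 2 lower (Klhl42 and Tnfrsf1b), and with the replicate block in the 6 libraries alone, a setting chosen after seeing the data, 3 higher and 11 lower, among them Col7a1 (0.86) and Rspo2. Same-numbered libraries of WT and WT-NTD also matched in Xist and Y-linked genes.

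For the difference between the WT and Het backgrounds, 0 became 2 higher and 2 lower in DESeq2, and 0 to 1 higher and 0 to 1 lower when a library was left out. Het-NTD against Het, 1 higher and 1 lower, gave 6 and 17 in DESeq2, 0 lower with the replicate block or the macrophage covariate, and 1 to 3 higher and 0 to 1 lower without 1 library. KO-NTD against KO, 1 higher and 0 lower, gave 9 and 18 in DESeq2, 1 lower without a filter or with the macrophage covariate, and 1 to 8 higher and 0 to 21 lower without 1 library, the highest without KO 1. When 1 library was left out, the log2 fold change ran from -0.00506 to 0.0321 for Rhoa and from -0.00790 to 0.0753 for Diap1, the lowest without WT-NTD 1, and from -0.145 to 0.0197 for Uqcrfs1, a respiratory chain gene, the highest without WT 3. The cause of these moves was not tested. Depth limits the genes with an average log2 CPM under 1, whose median SE was 0.446.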
